A study of Mus musculus with 6 samples.

Results

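Solute carriers are the membrane proteins that move amino acids, sugars, metals, vitamins, nucleosides and inorganic ions across the plasma membrane and the membranes of organelles. The 59 solute carrier genes described here were measured in N2a cells, a mouse neuroblastoma line, with normal or reduced levels of the nucleolar protein NPM1. They are the genes whose symbol starts with *Slc* and a number and whose mean normalised count over the 6 libraries was 10 or more. The 15 mitochondrial carriers of the *Slc25* family that reached this count were left out, as were 5 carriers of glucose, lactate and cystine (*Slc2a1*, *Slc2a3*, *Slc16a1*, *Slc16a3* and *Slc7a11*). The members make up 59 of the 5972 genes that reached the same count, and 59 of all 26656 genes listed. In all, 382 genes carry such a symbol, 256 had a mean count above 0 and 79 reached 10. The rule thus used the symbol and the mean count over both groups.

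The libraries comprised 3 control (CTR) and 3 NPM1 knockdown (NPM1 KD) samples. NPM1 KD cells were transfected with the plasmid pLKO.1-shNpm1, which carries 1 short hairpin RNA against *Npm1*, and CTR cells with pLKO.1-shCTR, a hairpin without a target. Both groups are the same line with the genotype label WT and share the medium, which contained serum, non-essential amino acids and L-glutamine. Total RNA was taken after 72 h, and the knockdown protocol names 9.3 µg/ml puromycin from 24 h after transfection onwards. With 1 hairpin and 1 cell line, effects of *Npm1* loss and effects of this hairpin cannot be told apart. The study's stated purpose was to see whether the altered H3K79me2 (dimethylated lysine 79 of histone H3) reaches the transcriptome when NPM1 is reduced. The study's description gives 3 biological replicates and the treatment protocol 2, so that the spread between these libraries may be partly technical. The p-values below rest on a variance that the fit takes from all genes, not on a gene's own spread.

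Expression is given as rlog, a value on the log2 scale that is normalised for library size and shrinks the differences of genes that have few reads. Every value of 1 or more in size was deposited as a whole number, so that a difference of 1 between single values can stand for any true difference above 0 and below 2. *Npm1* itself read 10, 10 and 10 in CTR against 8, 8 and 8 in NPM1 KD. Its difference of -2 (SE 0.33) had an adjusted p of 3.18e-06 in limma's moderated test with Benjamini-Hochberg adjustment over the 5972 genes, the test used throughout. Total reads per library are unknown, but the relative depths that follow from genes with few reads were 1.11 to 1.302 in CTR and 0.784 to 0.961 in NPM1 KD. Every NPM1 KD library was thus shallower than every CTR library, and the part of depth in the differences below was not tested. All 15 neuronal and neuroblastoma markers had reads, and 9 reached the count for the test. The summed rlog of all 15 was 74.3 to 76.3 in CTR and 67.4 to 68.5 in NPM1 KD. *Chga* and *Chgb*, proteins of secretory granules, were called lower (adjusted p 0.0243 and 0.000942), and *Gap43*, *Isl1*, *Stmn2* and *Tubb3* were each at a value 1 lower in every NPM1 KD library (adjusted p 0.0757). Of the 9 tested markers, 6 thus had a lower mean in NPM1 KD, 2 an equal one, *Uchl1* among them, and 1, *Hand2*, a higher one (difference 0.33, adjusted p 0.719). No fibroblast, epithelial, blood or glial marker reached the count: *Col1a2*, *Col3a1*, *Lum*, *Krt18*, *Cd68*, *Ptprc*, *Gfap* and *Sox10* were listed at 0.

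Carriers act in series in a cell. Transporters of the plasma membrane such as the SLC7 and SLC1 families bring in amino acids, and the SLC3A2 protein (CD98 heavy chain) carries several SLC7 light chains to the cell surface. In organelles, SLC30 proteins move zinc out of the cytosol, SLC39 proteins move it in, SLC35 proteins feed nucleotide sugars to the Golgi and the endoplasmic reticulum, and SLC18 proteins load synaptic vesicles with transmitters. Many of these genes are known to answer to supply: amino acid shortage acts through ATF4, low oxygen through HIF, and zinc through MTF1.

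None of the 59 solute carrier genes passed the test, by limma at an adjusted p of 0.05. Over all genes tested, 29 passed, or 0.486%, with 4 higher (0.067%) and 25 lower (0.419%). At an unadjusted p of 0.05, 1 member was higher and 7 were lower, 8 of 59 in all, where 5.89% of all genes were higher and 7.87% lower (13.8% in either direction). With each library centred on its mean, 1 member was higher and 3 were lower at that p, and the higher share of all such genes went from 42.8% to 64.8%. The 29 called genes were the 29 genes with a difference of at least 1.33 in size, and none of the 321 genes with a difference of exactly 1 was called. No member differed by more than 1. A p that misses the threshold does not show that a gene stayed the same, and an exact permutation test of 3 against 3 libraries could not give a p below 0.1 for any single gene.

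In 4 members the CTR and the NPM1 KD libraries did not overlap, as in 5.39% of all genes. *Slc3a2*, *Slc10a4* and the pseudogene *Slc10a4-ps* were lower in every NPM1 KD library (3 genes, or 5.08% of the members), where 3.28% of all genes were. *Slc35e4* was higher in every NPM1 KD library (1.69% of the members), where 2.11% of all genes were. Both shares of the members lie near those of all genes. These 4 genes passed the test only without the allowance for rounding or without the intensity trend of the fit (adjusted p 0.0313 without the trend), among the alternatives tried. When CTR replicate 3 was left out, 8 members lay lower without overlap (13.6%), against 5.09% of all genes. Without any other single library the number was 3 or 4.

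**Figure D1:**
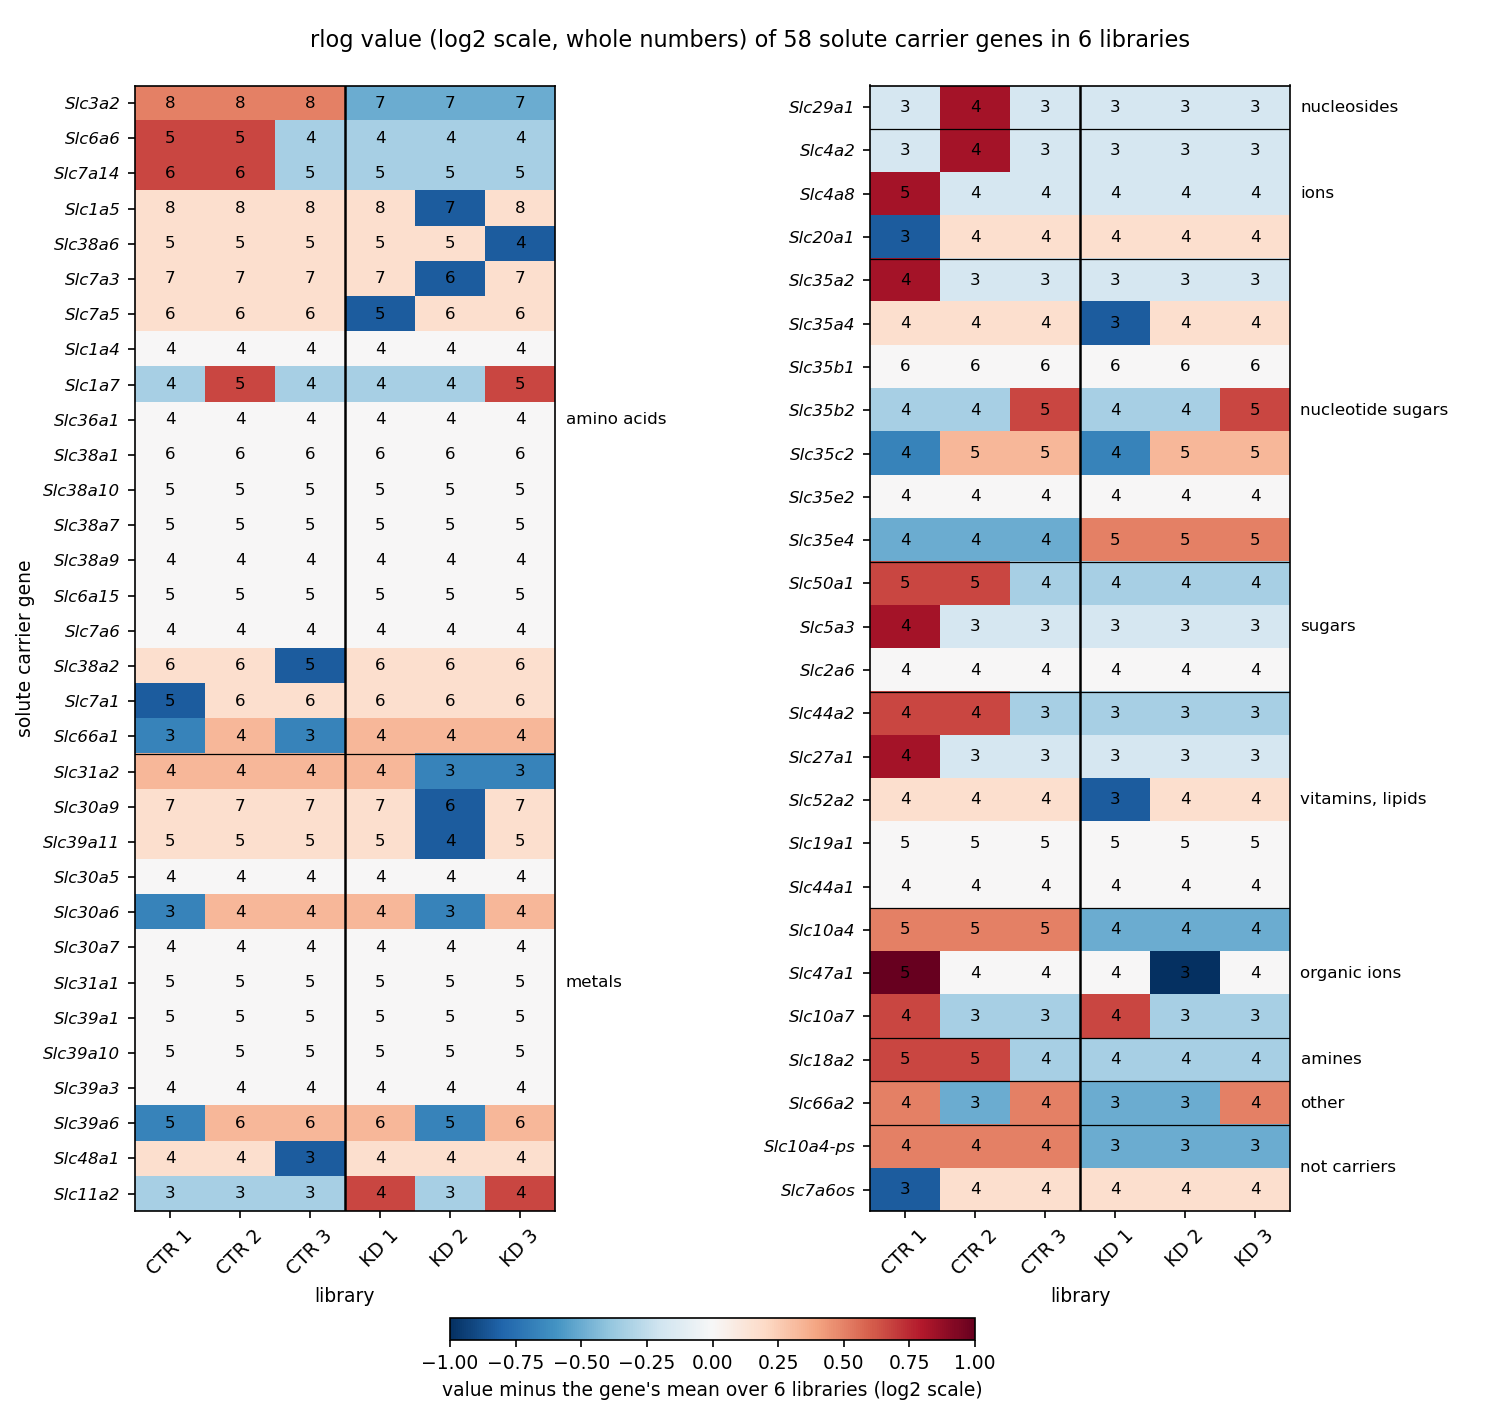
Rlog value (log2 scale, printed in each cell) of 58 of the 59 solute carrier genes in the 3 CTR and 3 NPM1 KD (KD) libraries, grouped by substrate; colours give the value minus the mean of the gene over the 6 libraries. Separate blocks of colour left and right of the line are seen in *Slc3a2*, *Slc10a4*, *Slc10a4-ps* and *Slc35e4*, and 19 genes have the same value in all 6 libraries.

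*Slc3a2* encodes the heavy chain that several amino acid exchangers need to reach the cell surface. Its mean count was 196, and its rlog was 8, 8 and 8 in CTR against 7, 7 and 7 in NPM1 KD. The difference of -1 (SE 0.34) had an adjusted p of 0.0757. Its partner light chains in these cells did not separate by group. *Slc7a5* (LAT1, the exchanger of large neutral amino acids) stood at 6, 6 and 6 in CTR against 5, 6 and 6 in NPM1 KD, and *Slc7a6* (y+LAT2) at 4 in all 6 libraries. The light chain of the cystine exchanger, *Slc7a11*, is outside the members and stood at 3, 3 and 3 in CTR against 4, 3 and 4 in NPM1 KD.

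*Slc10a4*, a relative of the bile acid carriers that is found on synaptic vesicles of cholinergic and monoaminergic neurons, had a mean count of 24.4. It stood at 5, 5 and 5 in CTR against 4, 4 and 4 in NPM1 KD, a difference of -1 (SE 0.34, adjusted p 0.0757). *Slc10a4-ps*, a pseudogene, had a mean count of 11.2, with 4, 4 and 4 in CTR against 3, 3 and 3 in NPM1 KD (difference -1, SE 0.37, adjusted p 0.119). The transcripts of both are alike over much of their length. In GENCODE M21 (mouse build GRCm38), where the gene ID of the pseudogene carries the name *Gm5868*, Slc10a4-201 and Gm5868-201 aligned over 1341 columns with 95.2% identity, 16 mismatches and 49 gap columns. The alignment covers positions 772 to 2106 of the 2106 bases of Slc10a4-201 and positions 85 to 1382 of the 1382 bases of Gm5868-201, and the earlier part of Slc10a4-201 lies outside it. The longest stretch without a difference was 220 bases. A stretch of 120 bases is shown to make the likeness visible, at positions 817 to 936 of Slc10a4-201, inside its coding part, and 132 to 251 of Gm5868-201. It is a gap-free stretch of this length with the most mismatches, so the gap columns of the alignment are not seen in it. Capitals mark its 2 mismatches:
Slc10a4-201: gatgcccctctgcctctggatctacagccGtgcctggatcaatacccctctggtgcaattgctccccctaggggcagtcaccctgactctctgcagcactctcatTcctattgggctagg
Gm5868-201: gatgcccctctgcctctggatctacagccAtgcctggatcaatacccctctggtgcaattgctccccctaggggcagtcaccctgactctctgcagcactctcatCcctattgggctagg
Reads from the aligned part with few of these differences could be counted for either gene, so both values are uncertain and the pair is not 2 separate observations.

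*Slc35e4*, an orphan member of the family of nucleotide sugar carriers, was the only member at a higher value in every NPM1 KD library. Its mean count was 21.6, and it stood at 4, 4 and 4 in CTR against 5, 5 and 5 in NPM1 KD. The difference of 1 (SE 0.34) had an adjusted p of 0.0757. By the exon annotation of GENCODE M21, *Slc3a2*, *Slc10a4* and *Slc35e4* share no exon bases with another gene. Of the 59 members, 15 do, of which 13 share them with a gene on the opposite strand, and the largest share was 13.7% of the exon bases of *Slc4a2*, with *Fastk*.

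The promoter sequences of these 3 genes are given because their libraries separated by group. Each run holds the 250 bases upstream of the gene's start, 5′ to 3′ on the strand of the gene, from RefSeq on mouse build GRCm38.p6, while the deposited values rest on GRCm39. Capitals mark CACGT, the reverse complement of ACGTG, the core of the element bound by the hypoxia factor HIF, at positions -164 to -160 from the start of *Slc3a2*. The other letters searched were TGATGNAA (the element of C/EBP and ATF factors), CACGTG (an E-box, every copy of which also holds ACGTG) and TGCACNC or TGCGCNC (the core of the metal response element), each on both strands, and none of these was in any of the 3 runs:
Slc3a2 upstream window, chr19:8713898-8714147, minus strand: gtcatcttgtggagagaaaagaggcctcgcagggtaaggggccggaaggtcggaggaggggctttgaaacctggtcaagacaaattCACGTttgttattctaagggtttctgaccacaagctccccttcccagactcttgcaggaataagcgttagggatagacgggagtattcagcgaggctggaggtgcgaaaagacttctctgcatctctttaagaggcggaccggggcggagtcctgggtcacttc
Slc10a4 upstream window, chr5:73006654-73006903, plus strand: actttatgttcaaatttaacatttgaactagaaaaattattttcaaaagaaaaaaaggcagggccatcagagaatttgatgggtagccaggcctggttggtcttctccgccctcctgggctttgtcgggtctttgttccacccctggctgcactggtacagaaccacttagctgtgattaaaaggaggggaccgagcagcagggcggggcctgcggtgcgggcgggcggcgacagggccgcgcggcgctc
Slc35e4 upstream window, chr11:3914665-3914914, minus strand: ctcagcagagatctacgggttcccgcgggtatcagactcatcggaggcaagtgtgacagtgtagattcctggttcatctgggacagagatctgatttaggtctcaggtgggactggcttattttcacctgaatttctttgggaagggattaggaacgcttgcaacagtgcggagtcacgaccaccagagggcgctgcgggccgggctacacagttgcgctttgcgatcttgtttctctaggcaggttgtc
A match is a description of the letters only, and a run without one says nothing about the factor. RefSeq entries were at hand for 43 of the 59 members, with 62 start sites. The windows searched for these shares were likewise the 250 bases upstream, without the 50 bases after the start. ACGTG was in 25.8% of these 62 windows and 16.6% of all promoter windows, and in 8 of the 15 windows of amino acid carriers. CACGTG was in 12.9% and 6.02%, the metal response core in 30.6% and 21.4%, and TGATGNAA in 1.61% and 3.45%. The metal response core was in 5 of the 12 windows of metal carriers. Some members, *Slc7a6*, *Slc29a1* and *Slc39a11* among them, have several start sites, so these are shares of windows and not of genes. Windows of the members were richer in G and C (median 61.6%) than all windows (52.4%), which bears on how often such letters occur.

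Amino acid carriers formed the largest list, with 19 members. None was called (0.486% of all genes were), 7 had a lower mean in NPM1 KD, 3 a higher one and 9 the same. The median difference was 0 and the mean -0.12, where the mean of all genes tested was -0.02. The list's mean was -0.05 without CTR replicate 2 and -0.18 without CTR replicate 3. Only *Slc3a2* separated by group. The 2 next lower members both had CTR replicate 3 at the NPM1 KD level. *Slc6a6*, the taurine carrier, stood at 5, 5 and 4 in CTR against 4, 4 and 4 in NPM1 KD. *Slc7a14*, a relative of the cationic amino acid carriers in lysosomes, stood at 6, 6 and 5 in CTR against 5, 5 and 5 in NPM1 KD. Each differed by -0.67 with an unadjusted p of 0.048 and an adjusted p of 0.329.

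*Slc66a1*, the exporter of cationic amino acids from lysosomes, differed in the other direction, with 3, 4 and 3 in CTR against 4, 4 and 4 in NPM1 KD (difference 0.67, adjusted p 0.357). The members with the highest mean counts of the list, apart from *Slc3a2*, were *Slc1a5* (267) and *Slc7a3* (123.2). *Slc1a5*, the glutamine carrier ASCT2, and *Slc7a3*, an importer of cationic amino acids, each had 1 NPM1 KD library, replicate 2, a step below the other 5. *Slc38a6* had replicate 3 of NPM1 KD a step lower. Among the importers of small neutral and cationic amino acids, *Slc38a2* (SNAT2) had CTR replicate 3 and *Slc7a1* (CAT1) CTR replicate 1 a step below the other 5 libraries.

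The same value in all 6 libraries was found for 8 amino acid carriers (42.1%), where 39.5% of all genes had it. They comprise *Slc38a9*, the lysosomal arginine sensor of mTORC1, *Slc38a7*, which exports glutamine from lysosomes, *Slc36a1*, a proton-coupled carrier, and *Slc1a4* (ASCT1). *Slc38a1* (SNAT1), *Slc38a10*, *Slc6a15* (a carrier of branched-chain amino acids and proline) and *Slc7a6* complete them. *Slc1a7*, a glutamate carrier, was a step higher in 1 library of each group, CTR replicate 2 and NPM1 KD replicate 3.

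Metal carriers numbered 13, none of which was called or separated by group. In NPM1 KD the mean was lower in 3, higher in 2 and equal in 8, with a median of 0 and a mean of -0.03. The mean took either sign with 1 library left out, from -0.12 without NPM1 KD replicate 1 to 0.12 without NPM1 KD replicate 2. *Slc31a2*, a copper carrier of endosomes and lysosomes, had the largest lower value, with 4, 4 and 4 in CTR against 4, 3 and 3 in NPM1 KD (difference -0.67, adjusted p 0.357). *Slc11a2* (DMT1, the importer of iron and other divalent metals) had the largest higher value, with 3, 3 and 3 in CTR against 4, 3 and 4 in NPM1 KD (difference 0.67, adjusted p 0.397). In both genes 1 NPM1 KD library was at the CTR level.

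The zinc carrier families SLC30 and SLC39 made up 9 of the metal list. *Slc30a9* had the highest mean count (119) and stood at 7, 7 and 7 in CTR against 7, 6 and 7 in NPM1 KD. *Slc39a11* also had NPM1 KD replicate 2 alone a step lower. *Slc30a5* and *Slc30a7*, which load zinc into the secretory pathway, and the importers *Slc39a1*, *Slc39a3* and *Slc39a10* had the same value in all 6 libraries, as did *Slc31a1* (CTR1), the copper importer of the plasma membrane. *Slc30a6* and *Slc39a6* were a step lower in CTR replicate 1 and NPM1 KD replicate 2 and had equal means. The heme carrier *Slc48a1* was a step lower in CTR replicate 3 alone.

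The only nucleoside carrier, *Slc29a1* (ENT1), had the lowest mean count of all members (10.1). It stood at 3, 4 and 3 in CTR against 3, 3 and 3 in NPM1 KD (difference -0.33, adjusted p 0.751), so 1 CTR library set the difference.

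Ion carriers numbered 4, none called and none separated by group, with a mean difference of -0.17, which was -0.08 without CTR replicate 2 or without NPM1 KD replicate 1. In the 3 described here, 1 library differed from the other 5. For *Slc4a2*, an exchanger of chloride and bicarbonate, it was CTR replicate 2 (4 against 3), and for *Slc4a8*, a sodium-driven bicarbonate exchanger, CTR replicate 1 (5 against 4). The phosphate importer *Slc20a1* was at 3 in CTR replicate 1 and at 4 elsewhere.

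**Figure D2:**
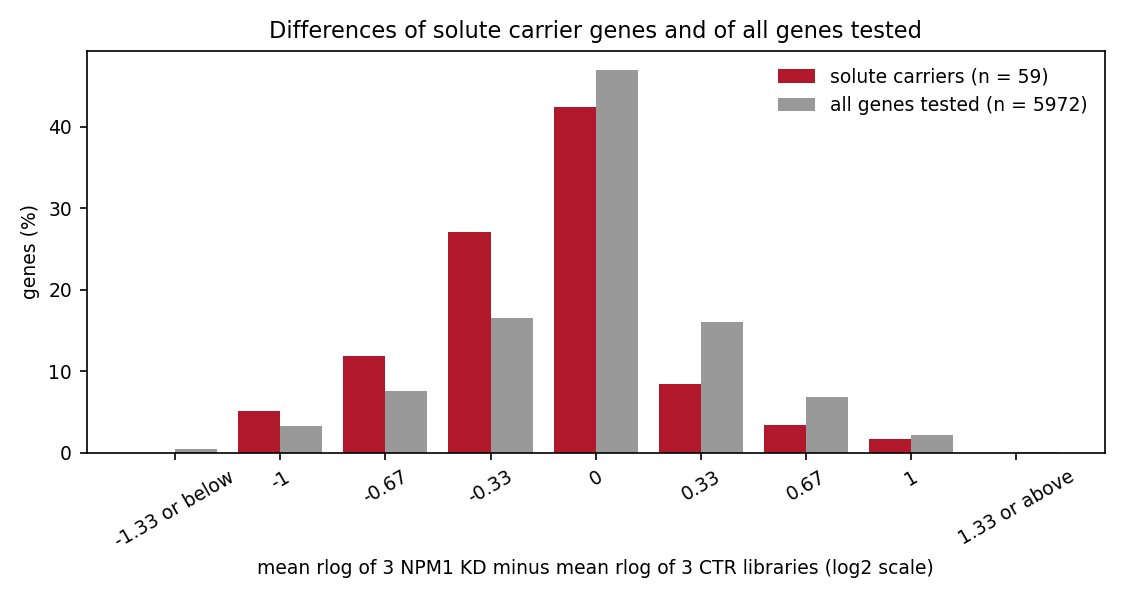
Share of genes (%) at each difference of mean rlog, NPM1 KD minus CTR (log2 scale), for the 59 solute carriers and all 5972 genes tested. The bars of the members are above those of all genes at -0.33 (27.1% against 16.5%) and below them at 0.33 (8.47% against 16.1%), and no member reaches 1.33 in size.

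Carriers of nucleotide sugars and their relatives numbered 7, with *Slc35e4* described above, and their mean difference was 0.05. It was -0.05 without NPM1 KD replicate 3 and 0.17 without NPM1 KD replicate 1. *Slc35b1* had the highest mean count (63.7) and stood at 6 throughout, and *Slc35e2* stood at 4 throughout. *Slc35b2*, the carrier of the sulfate donor PAPS into the Golgi, and *Slc35c2* had equal means with libraries a step apart. The Golgi carrier of UDP-galactose, *Slc35a2*, was higher in CTR replicate 1 alone (4 against 3), and *Slc35a4* was lower in NPM1 KD replicate 1 alone (3 against 4).

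Among 5 carriers of vitamins, choline and lipids the mean was lower in NPM1 KD for 3 and higher for none (mean difference -0.27, or -0.17 without CTR replicate 1). *Slc44a2*, a choline carrier, stood at 4, 4 and 3 in CTR against 3, 3 and 3 in NPM1 KD (adjusted p 0.397). The fatty acid carrier *Slc27a1* was higher in CTR replicate 1 alone and the riboflavin carrier *Slc52a2* lower in NPM1 KD replicate 1 alone. The folate importer *Slc19a1* stood at 5 and the choline carrier *Slc44a1* at 4 throughout.

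The 3 sugar carriers left by the rule had a mean difference of -0.33, or -0.17 without CTR replicate 1. *Slc50a1*, a sugar carrier of the SWEET family, stood at 5, 5 and 4 in CTR against 4, 4 and 4 in NPM1 KD (adjusted p 0.329). The myo-inositol importer *Slc5a3* was higher in CTR replicate 1 alone, and *Slc2a6*, a relative of the glucose carriers, stood at 4 throughout. Outside the members, the glucose carrier *Slc2a3* (GLUT3) fell from 9, 8 and 8 to 7, 7 and 7, a difference of -1.33 (SE 0.34, adjusted p 0.0243).

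Carriers of carboxylates and organic ions numbered 3. Beside *Slc10a4*, *Slc47a1* (MATE1, an exporter of organic cations) stood at 5, 4 and 4 in CTR against 4, 3 and 4 in NPM1 KD (difference -0.67, adjusted p 0.333). It was the only member whose values spanned more than 1 step. *Slc10a7* was a step higher in replicate 1 of both groups and its means were equal. *Slc18a2* (VMAT2), which loads monoamines into vesicles, stood at 5, 5 and 4 in CTR against 4, 4 and 4 in NPM1 KD (difference -0.67, adjusted p 0.329). Both *Slc18a2* and *Slc10a4* are genes of neurons, and the neuronal markers given above moved in the same direction. The part of the markers in these values was not tested, and in bulk RNA fewer cells of a type and less RNA per cell cannot be told apart. *Slc66a2* stood at 4, 3 and 4 in CTR against 3, 3 and 4 in NPM1 KD, and *Slc7a6os*, a gene named after its position on the opposite strand of *Slc7a6*, was at 3 in CTR replicate 1 and at 4 elsewhere.

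Over all 59 members the mean was lower in NPM1 KD for 26 (44.1%), higher for 8 (13.6%) and equal for 25. Over all genes tested it was lower for 27.8% and higher for 25.2%. The median difference was 0 for both sets, and the mean was -0.15 for the members. These shares carry no test. In 20 of the 34 members with a difference, it came from 1 library that differed from the other 5. The mean rlog of the 59 members was 4.58, 4.63 and 4.47 in CTR against 4.41, 4.32 and 4.49 in NPM1 KD, so that NPM1 KD replicate 3 lay above CTR replicate 3 and the groups overlapped.

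CTR replicate 3 was below both other CTR libraries in 7 members and above them in 1, while over all genes it was below in 5.59% and above in 5.94%. NPM1 KD replicate 2 was below both other NPM1 KD libraries in 8 members (13.6%) and above them in none, while over all genes it was below in 7.08% and above in 4.97%. The pattern of CTR replicates 1 and 2 a step above the other 4 libraries was shared by 5 members: *Slc18a2*, *Slc44a2*, *Slc50a1*, *Slc6a6* and *Slc7a14*. Together with *Slc3a2*, *Slc10a4* and *Slc10a4-ps* they are the 8 members that separated without CTR replicate 3.

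**Figure D3:**
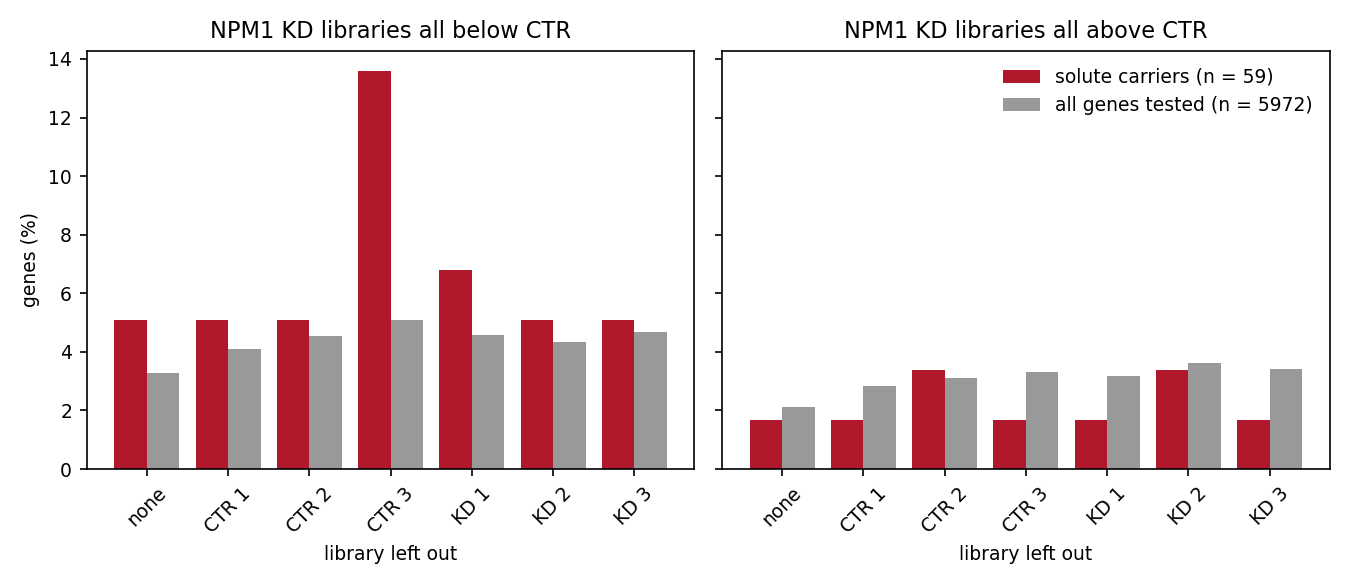
Share of genes (%) whose NPM1 KD libraries all lie below (left) or above (right) all CTR libraries, with all 6 libraries (none) and with each library left out, for the 59 solute carriers and all 5972 genes tested. Without CTR replicate 3 the share of members below rises from 5.08% to 13.6%, and that of all genes from 3.28% to 5.09%.

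The members had few reads. Their mean counts ran from 10.1 to 267 with a median of 17.97, against 27.03 for all genes tested, and they held 0.237% of the summed mean counts of all genes. Just outside the cut of 10 were *Slc35g2* (9.97), *Slc15a4* (9.93), *Slc37a4* (8.95) and *Slc35a1* (8.69), each at 3 in all 6 libraries. Just inside were *Slc29a1* (10.1), *Slc27a1* (10.3), *Slc4a2* (10.5) and *Slc5a3* (10.6), each with 1 library a step higher.

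Where a gene lies between whole numbers bears on whether a difference can be seen. The log2 mean count of the 19 members with the same value throughout lay a median of 0.378 from the nearest rounding boundary, midway between whole numbers. For the 40 members with several values the median was 0.153, and for the 4 members whose groups did not overlap it was 0.0882 (0.0132 to 0.111). The same held over all genes, with 0.364, 0.134 and 0.0853. These distances follow in part from how the genes were grouped by their values. A gene at adjacent whole numbers in CTR and NPM1 KD tends to have its mean near the boundary between them. This holds for small and for larger underlying changes, so the distances cannot tell these apart. By rounding alone, a gene close to a boundary can show a difference of 1 with a small change. A gene far from one can show none.

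**Figure D4:**
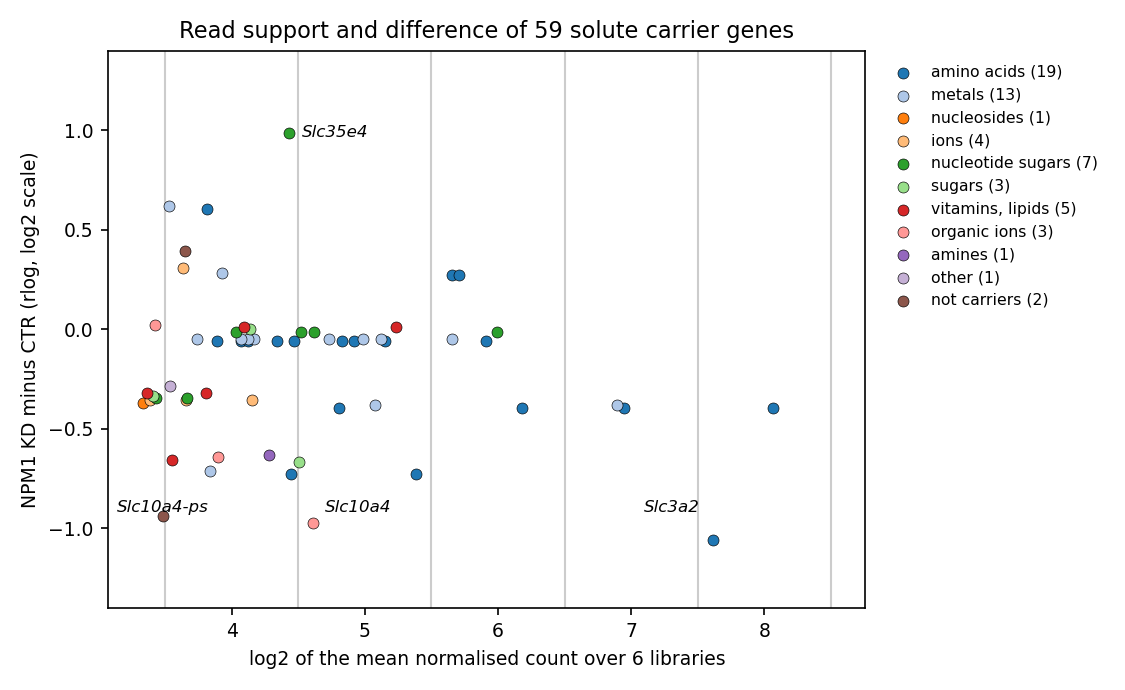
Difference of mean rlog, NPM1 KD minus CTR (log2 scale), against the log2 of the mean normalised count over the 6 libraries for the 59 members, coloured by substrate; points of a list are moved up or down by at most 0.06 to keep them apart, and vertical lines mark the rounding boundaries. The 4 named genes, whose groups do not overlap, each lie next to a boundary. Genes at adjacent whole numbers in CTR and NPM1 KD tend to lie there, for small and larger underlying changes alike.

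Other transport genes were taken from a list of pumps and partners. Of 25 tested genes for ion pumps, ABC transporters, organic anion carriers and partner proteins of carriers, none was called, with 2 higher and 4 lower at an unadjusted p of 0.05. *Atp2c1*, the Golgi pump for calcium and manganese, separated by group at 4 in CTR against 3 in NPM1 KD, and *Abcb1b*, an exporter of drugs, at 3 in CTR against 4 in NPM1 KD (adjusted p 0.119 for both). *Bsg*, the chaperone of lactate carriers, stood at 9, 9 and 8 in CTR against 8, 8 and 8 in NPM1 KD. The zinc-responsive metallothionein *Mt1* stood at 4 in all 6 libraries.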

How the data were processed

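RNA-seq of N2a cells comprised 3 CTR and 3 NPM1 KD libraries, grouped by the sample labels. The authors prepared cDNA with a Nanopore PCR barcoding kit. The authors, per the submitters' processing notes, used minimap2, featureCounts, DESeq2 and GRCm39, with versions, annotation and strand setting not given in the sources used here. The sequencing is not described in the text of the paper. The authors deposited rlog values, a log2-scale score (all 75364 values of 1 or more in size were whole), and a table whose other column used here, the authors' mean normalised count over the 6 libraries, chose the genes. The deposited fold changes, p-values and adjusted p-values of the authors' own comparison were not used. Total counts are unknown, which leaves counting error per library unknown.

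Of 26913 rows, 257 repeated a gene ID under a second symbol and were dropped. Genes with a mean count of 10 or more (5972) were fitted with limma 3.58.1 in R 4.3.3 (lmFit, eBayes with an intensity trend), two-sided, without a pseudocount, with Benjamini-Hochberg adjustment and a threshold of 0.05. A floor of 0.0833, the variance added by rounding, was set under the variance of each gene. With this floor and the trend, genes of like mean level shared the same SE whatever their own spread. It was 0.345 for *Slc36a1*, at 4 in all 6 libraries, and for *Slc47a1*, with a standard deviation of 0.577 in each group. The filter used the mean count because a filter on rounded rlog values would leave 54 of the 59 members. The fit was tested on simulated rounded data. Alternatives were other treatments of rounding, trend, filter and scaling, a replicate block and each library left out. The counts of genes without overlap were repeated without each library after the data had been seen.

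Relative depths were solved from 924 genes with few reads. Promoters were matched by symbol, and transcripts were aligned with Biopython 1.88. Figures were drawn with matplotlib 3.10.9. The members and the substrate lists were chosen with earlier results of these data known, and *Slc10a4-ps* and *Slc7a6os* were set apart from the substrate lists after the members had been seen. Genes named in the text were *Npm1*, members without overlap, in each list the members with the largest differences and highest mean counts, partners of these and, for a fuller account, other members. Values of some genes of these lists, 1 member among them, are not reported here.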

Additional observations from a re-analysis of the deposited data

How the results depend on the processing

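The number of solute carriers called stayed at 0 higher and 0 lower under the added rounding variance, both other filters, centring of each library, the replicate block and each library left out. Without the floor on the variance, and likewise without the intensity trend, 1 was called higher and 3 lower, namely *Slc35e4* and *Slc3a2*, *Slc10a4* and *Slc10a4-ps*. Their adjusted p was 0.0313 without the trend, and 0.182 to 0.345 with 1 library left out. Over all genes, calls in either direction numbered 301 without the floor, 350 without the trend, 8 with the rounding variance added, 11 without the filter on low counts, and 5 to 11 with 1 library left out. The cause was not tested.

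Deviations of libraries with the same replicate number correlated at 0.00819, 0.000391 and 0.0285, and those with unlike numbers at -0.0351 to 0.024. Because the values are whole numbers, these correlations cannot decide whether the replicate numbers pair the libraries. With the replicate block 8 genes were called, none of them a solute carrier.

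With 1 library left out, genes lower without overlap numbered 3 to 8 among the members and 245 to 304 among all genes, and genes higher without overlap 1 to 2 and 170 to 217. The median difference ranged from -0.17 to 0 for the members, from -0.42 to -0.17 for ions, from -0.17 to 0 for nucleotide sugars, from -0.5 to 0 for sugars and from -0.33 to 0 for vitamins, choline and lipids. The last was -0.17 with the filter on mean rlog. The mean ranged from -0.19 to -0.11 for the members, from -0.18 to -0.05 for amino acids, from -0.12 to 0.12 for metals, from -0.21 to -0.08 for ions, from -0.05 to 0.17 for nucleotide sugars, from -0.5 to -0.17 for sugars, from -0.37 to -0.17 for vitamins, choline and lipids and from -0.72 to -0.33 for carboxylates and organic ions. Centring moved the share of higher values among all genes at an unadjusted p of 0.05 from 42.8% to 64.8%, and the members at that p from 1 higher and 7 lower to 1 and 3. No direction was reversed for *Npm1* or for the 34 members with a difference of the means, while the means of metals and of nucleotide sugars changed sign. In 20 of these 34 members 1 library set the difference, so leaving it out gives 0 and not a reversal. The 25 members with equal means had no direction to reverse. Some of them, such as *Slc10a7*, took either sign with 1 library left out (-0.33 to 0.33). Few reads and whole-number values limit what these libraries can show for genes that differ by less than 1.33.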
